A study of Mus musculus with 21 samples.

Results

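The genes described here encode 9 mitochondrial proteins of the tricarboxylic acid (TCA) cycle: Cs, Idh2, Idh3a, Idh3b, Ogdh, Dlst, Sucla2, Fh1 and Mdh2. They were chosen by gene name, with earlier results of these data known, and are 9 of the 53801 gene identifiers in the count tables of a mouse RNA-seq series on infarcted hearts and cultured cardiac fibroblasts. Each had 1 identifier, and all 9 passed the filter on low counts in both experiments.

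The TCA cycle runs in the mitochondrial matrix and oxidises the acetyl group of acetyl-CoA to carbon dioxide, passing the electrons to NADH and to succinate dehydrogenase for oxidative phosphorylation. Acetyl-CoA comes mainly from fatty acids in the adult heart, and from pyruvate, ketone bodies and amino acids. Cardiac muscle cells are among the cells richest in mitochondria and depend on the cycle for most of their ATP, while fibroblasts and leukocytes carry fewer mitochondria per cell.

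The heart experiment held 15 libraries from tissue labelled border zone, taken at day 7. They were 3 wild-type hearts after a sham operation (sham), 4 wild-type hearts after myocardial infarction (MI), 4 wild-type hearts after MI that also received FAPI (FAPI hearts) and 4 hearts of the FapKO genotype after MI (FapKO hearts). Fap is fibroblast activation protein, a surface protease of activated fibroblasts, and FAPI is read from the series title as an inhibitor of it. The strain, the kind of knockout allele, the compound, its dose and its timing are not stated in the labels, which also name no vehicle for the MI hearts. In the culture experiment, mouse ventricular fibroblasts were kept for 7 days in 5% GelMA, a light-cured gelatin gel, either by themselves (3 libraries, alone) or with endothelial cells of heart and lung at a ratio of 2:1 (3 libraries, co-culture). Co-cultured fibroblasts were sorted as CD45-CD31-Pdgfra+ cells before extraction and those grown alone were not sorted, so partner cells and sorting cannot be told apart. The series compared Fap loss or inhibition with untreated infarcts, and fibroblasts with and without endothelial cells. Replicate samples of the cultures are called biological replicates in the design text, while for hearts the labels only number them, and p-values reflect only how much these samples vary.

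Heart libraries held 18474138 to 37287355 counts, while co-culture libraries held 4735337 to 6346015 and libraries of fibroblasts alone 12871240 to 15650221. Fap had 46 to 68 counts in the FapKO hearts (1.79 to 2.36 CPM, counts scaled to library size with TMM factors), against 9.40 to 13.2 CPM in MI and 2.71 to 3.86 CPM in sham hearts. This checks the knockout label by Fap level only, since no count within a deleted part is at hand, and it does not check the FAPI label. Mitochondrially encoded genes took 15.2% to 19.6% of counts in sham, 4.18% to 8.03% in MI, 10.9% to 13.2% in FAPI and 13.0% to 14.1% in FapKO hearts. All 14 cardiomyocyte markers were measured in every heart group and summed to 100408 to 115199 CPM in sham, 12403 to 37109 in MI, 39942 to 71476 in FAPI and 58626 to 70602 in FapKO hearts. In cultures, all 9 fibroblast markers were measured, and 12 of the 14 cardiomyocyte markers stayed under 10 counts in every library. The sham hearts are labelled border zone too, although they had no infarct by their labels.

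Before the values, the promoters of 3 genes are shown, because the 9 genes moved together in the hearts and these windows hold a longer motif that few promoters hold. RefSeq promoter windows (build GRCm38.p6, 250 bases before to 50 after a start site) matched 8 of the 9 genes, Idh3a being the exception. Printed are the 250 bases before the start, 5′ to 3′ on the gene's strand, with capitals marking the cAMP response element TGACGTCA in Mdh2 and Ogdh and the NRF1 site in Sucla2, searched as GCGC and TGCGC with any base between them. NRF1 and CREB, which bind such letters, are transcription factors known to act on genes of mitochondrial proteins. The windows are Mdh2 at chr5:135778399-135778648, Ogdh at chr11:6291347-6291596 (the first of its 6 windows) and Sucla2 at chr14:73552536-73552785, all on the plus strand. The RefSeq starts used for Mdh2 and Sucla2, and the letters in capitals before them, lie inside the longer gene spans given for these genes here.
Mdh2: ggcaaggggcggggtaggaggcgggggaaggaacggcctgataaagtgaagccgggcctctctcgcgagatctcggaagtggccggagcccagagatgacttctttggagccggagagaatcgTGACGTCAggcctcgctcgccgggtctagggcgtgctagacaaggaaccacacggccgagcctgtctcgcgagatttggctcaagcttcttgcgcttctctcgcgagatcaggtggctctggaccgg
Ogdh: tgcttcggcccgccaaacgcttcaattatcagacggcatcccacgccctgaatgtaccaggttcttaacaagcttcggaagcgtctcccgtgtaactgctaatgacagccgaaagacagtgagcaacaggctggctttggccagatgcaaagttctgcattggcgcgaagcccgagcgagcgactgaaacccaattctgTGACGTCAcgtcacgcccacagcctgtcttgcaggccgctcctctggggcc
Sucla2: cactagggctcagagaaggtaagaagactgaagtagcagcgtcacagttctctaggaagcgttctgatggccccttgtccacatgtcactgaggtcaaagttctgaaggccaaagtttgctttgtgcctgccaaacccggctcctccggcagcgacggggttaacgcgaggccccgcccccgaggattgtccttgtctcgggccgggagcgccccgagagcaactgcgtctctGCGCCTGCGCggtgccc
Searched on both strands of the whole windows, TGACGTCA stood in 2 of the 8 genes and in 2.03% of the 27025 genes with a window, and the NRF1 site stood in 1 of 8 and in 5.19%. The ETS core CCGGAAG stood in Dlst and Idh3b (9.93% of genes), the SP1 box GGGCGG in 7 of 8 (38.2%), and CCAAT in 5 of 8 (41.06%). The estrogen-related receptor half-site TNAAGGTCA (1.43%) and the YY1 core AAGATGGCG (1.64%) stood in 0 of the 8 genes' windows. These matches describe letters only, and the windows differ between genes that moved together.

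In the MI hearts all 9 genes were lower than in sham hearts, by 4.39-fold for Dlst to 11.7-fold for Idh2, and in the FAPI and FapKO hearts all 9 were higher than in MI hearts. The FAPI hearts exceeded the MI hearts by 2.02-fold (Dlst) to 3.66-fold (Idh2), and the FapKO hearts exceeded them by 2.76-fold (Dlst) to 5.06-fold (Idh2). Both comparisons use the same 4 MI hearts. All 9 genes remained lower than sham in both groups, by 2.17-fold to 3.35-fold in FAPI and by 1.59-fold to 2.41-fold in FapKO hearts. In whole tissue, fewer cells of a type and less RNA per cell cannot be told apart.

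**Figure D1:**
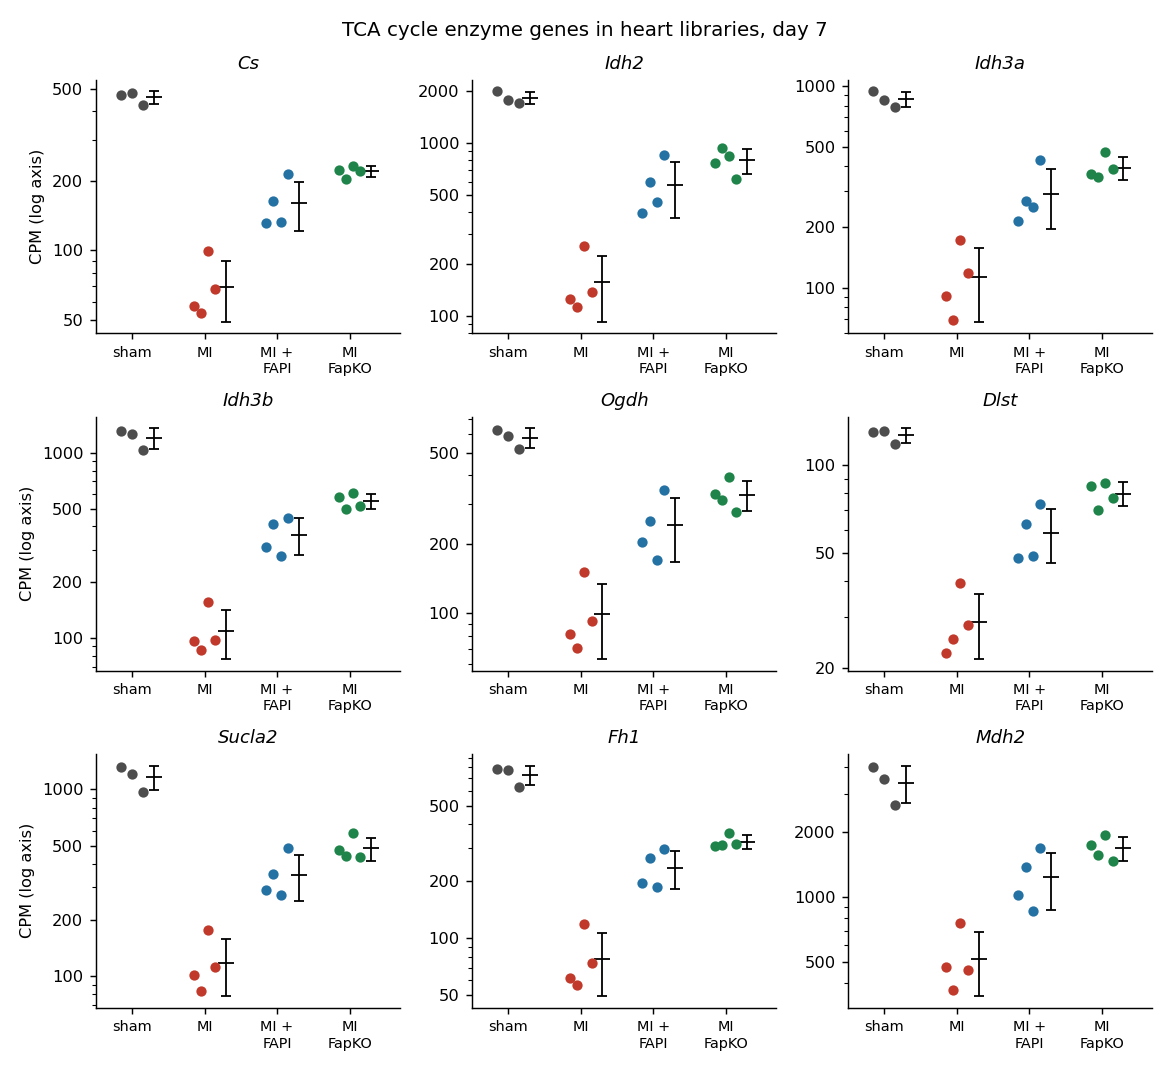
CPM (log axis) of each of the 9 genes in every heart library, with the points in replicate order and bars giving the mean and SD of each group (n = 3 sham, n = 4 in the other groups). In every panel the 4 MI hearts lie below all other hearts and the 3 sham hearts above them, with FAPI and FapKO hearts between.

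These calls come from the quasi-likelihood test of edgeR on all 15 hearts, adjusted over 17064 genes by the Benjamini-Hochberg method. Against sham, 9 of 9 genes fell in MI hearts (adjusted p 2.22e-09 to 1.69e-07), where 32% of all genes tested were called lower. Against MI, 9 of 9 rose in FAPI hearts (adjusted p 6.25e-05 to 0.000997; 17.9% of all genes called higher) and 9 of 9 rose in FapKO hearts (adjusted p 3.46e-07 to 2.47e-05; 25% called higher). Against sham, 9 of 9 were lower in FAPI hearts (26.5% of all genes) and 9 of 9 in FapKO hearts (20.3%). In each of these 5 comparisons the libraries of the 2 groups did not overlap for any of the 9 genes, as held in the same direction for 31.1% of all genes in MI against sham, 15.6% in FAPI and 22.6% in FapKO against MI, 27.5% in FAPI and 23.7% in FapKO against sham.

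The median log2 fold change of the 9 genes was -2.93 in MI against sham, beside 0.14 over all genes tested. It was 1.37 beside -0.03 in FAPI against MI, and 1.81 beside -0.08 in FapKO against MI. Against sham it was -1.56 beside 0.09 in FAPI and -1.13 beside 0.05 in FapKO hearts.

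TMM factors ran from 0.626 to 0.697 in sham and from 1.24 to 1.55 in MI hearts, so the scaling matters to the size of these differences. Under scaling by total counts the all-gene median moved by 1.09 in MI against sham, -0.41 in FAPI and -0.55 in FapKO against MI, and 0.67 in FAPI and 0.54 in FapKO against sham. A change of scaling moves all genes of a comparison by nearly the same amount. The distance from the all-gene median is therefore nearly fixed and is no check of the scaling. For the median of the 9 genes it was -3.07 with TMM and -3.10 with total counts in MI against sham. It was 1.40 and 1.40 in FAPI against MI, and 1.88 and 1.91 in FapKO against MI. Against sham it was -1.66 and -1.68 in FAPI and -1.18 and -1.18 in FapKO hearts. All 9 genes kept their direction and call under total-count scaling except Ogdh (log2 -0.29, adjusted p 0.172) and Dlst (-0.13, adjusted p 0.381) in FapKO against sham. Over all genes called, the share called lower moved from 46.3% with TMM to 13.9% with total counts in MI against sham, from 39.9% to 85.4% in FAPI and from 50.9% to 83.4% in FapKO against MI, and from 47.6% to 13.2% and from 51.3% to 8.25% in FAPI and FapKO against sham.

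Cs (ENSMUSG00000005683.8, chr10:128337734-128362479, plus strand) encodes citrate synthase, which joins acetyl-CoA to oxaloacetate and opens the cycle. In sham hearts it read 471, 479 and 425 CPM and in MI hearts 57.7, 53.8, 99.1 and 67.9 CPM. In FAPI hearts it read 131, 163, 132 and 213 CPM and in FapKO hearts 223, 204, 232 and 220.4 CPM. The third MI heart was the highest of its group and still below every FAPI heart, and the 4 FapKO hearts lay within a narrow band above 3 of the 4 FAPI hearts. By edgeR's quasi-likelihood test the log2 fold change was -2.72 (SE 0.20, Benjamini-Hochberg adjusted p 8.84e-09) in MI against sham, 1.20 (SE 0.18, adjusted p 0.000266) in FAPI against MI and 1.66 (SE 0.18, adjusted p 2.9e-06) in FapKO against MI. Of the 9 genes it is the one with near copies: Csl is 91.9% identical over 1522 bp and had 1 count in all 21 libraries, and the pseudogene Gm48254 is 92.1% identical over 469 bp and had 120, against 79790 for Cs.

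The next step, from isocitrate to 2-oxoglutarate, is run by NADP-dependent Idh2 and by the NAD-dependent enzyme of Idh3a (catalytic), Idh3b and Idh3g (the other subunits). Idh2 (ENSMUSG00000030541.16, chr7:80094846-80115392, minus strand) read 2005, 1796 and 1719 CPM in sham and 125, 112, 254 and 139 CPM in MI hearts. It read 393, 594, 461 and 856 CPM in FAPI and 774, 946, 844 and 624 CPM in FapKO hearts. It had the largest fall of the 9 in MI and the largest rise in both other groups, and its 4 FapKO hearts overlapped the FAPI hearts. Its log2 fold change was -3.55 (SE 0.29) in MI against sham, 1.87 (SE 0.26) in FAPI against MI and 2.34 (SE 0.27) in FapKO against MI.

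Idh3a (ENSMUSG00000032279.11, chr9:54586334-54604661, plus strand) read 941, 856 and 786 CPM in sham and 90.7, 68.9, 173 and 118 CPM in MI hearts. It read 215, 269.6, 250.2 and 432 CPM in FAPI and 364, 355, 468 and 389.5 CPM in FapKO hearts. The fourth FAPI heart stood above 3 of the 4 FapKO hearts, and the other 3 FAPI hearts below all of them. On the log2 scale Idh3a stood at -2.93 (SE 0.27) in MI against sham, 1.37 (SE 0.25) in FAPI and 1.81 (SE 0.25) in FapKO against MI.

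Idh3b (ENSMUSG00000027406.12, chr2:130279309-130284547, minus strand) read 1312, 1266 and 1033 CPM in sham and 96.6, 85.7, 157 and 97.9 CPM in MI hearts. It read 309, 415, 277 and 444 CPM in FAPI and 579, 498, 604 and 514 CPM in FapKO hearts. Every FAPI heart lay below every FapKO heart, which held for 1 other member only, Fh1. The log2 fold change was -3.46 (SE 0.21) in MI against sham, 1.72 (SE 0.19) in FAPI and 2.33 (SE 0.20) in FapKO against MI. Its exons share 5 bp with Nop56 on the other strand, and no other member shares exon bases with another gene.

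2-Oxoglutarate dehydrogenase, the next complex, turns 2-oxoglutarate into succinyl-CoA; Ogdh encodes its E1 subunit and Dlst its E2 subunit, which carries the lipoyl arm. Ogdh (ENSMUSG00000020456.17, chr11:6291633-6356642, plus strand) read 629, 591 and 517 CPM in sham and 81.7, 70.7, 151 and 92.5 CPM in MI hearts. It read 203, 251, 171 and 343 CPM in FAPI and 331, 309.9, 393 and 275 CPM in FapKO hearts. The MI hearts were lowest throughout, and FAPI and FapKO hearts overlapped. Its difference on the log2 scale was -2.55 (SE 0.25) in MI against sham, 1.29 (SE 0.23) in FAPI and 1.73 (SE 0.23) in FapKO against MI.

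Dlst (ENSMUSG00000004789.10, chr12:85110833-85134845, plus strand) read 130.4, 131 and 118 CPM in sham and 22.6, 25.3, 39.3 and 28.3 CPM in MI hearts. It read 47.8, 62.9, 48.9 and 73.4 CPM in FAPI and 84.8, 70.2, 86.7 and 77.1 CPM in FapKO hearts. Its groups stood in the same order as those of the other members but closer together. The log2 fold change was -2.13 (SE 0.18) in MI against sham, 1.01 (SE 0.16) in FAPI and 1.47 (SE 0.17) in FapKO against MI, the smallest of the 9 in each.

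Sucla2 (ENSMUSG00000022110.13, chr14:73525319-73596142, plus strand) encodes the ADP-specific beta subunit of succinyl-CoA ligase, the step of the cycle that makes ATP or GTP directly. It read 1317, 1209 and 972 CPM in sham and 102, 83.7, 176 and 112 CPM in MI hearts. It read 288, 351, 271 and 484 CPM in FAPI and 475, 439, 581 and 437 CPM in FapKO hearts. The fourth FAPI heart lay among the FapKO hearts and the other 3 below them. On the log2 scale its difference was -3.30 (SE 0.25) in MI against sham, 1.56 (SE 0.22) in FAPI and 2.03 (SE 0.23) in FapKO against MI.

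Fh1 (ENSMUSG00000026526.14, chr1:175600374-175625635, minus strand) encodes fumarase, which hydrates fumarate to malate. It read 785, 779 and 633 CPM in sham and 61.8, 56.6, 119 and 74.3 CPM in MI hearts. It read 195, 264, 186 and 296 CPM in FAPI and 307, 312, 362 and 313 CPM in FapKO hearts. The MI, FAPI and FapKO hearts kept apart from one another here, since the highest FAPI heart stayed under the lowest FapKO heart and the highest MI heart under the lowest FAPI heart. As a log2 fold change this came to -3.23 (SE 0.23) in MI against sham, 1.59 (SE 0.21) in FAPI and 2.05 (SE 0.21) in FapKO against MI.

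Mdh2 (ENSMUSG00000019179.10, chr5:135778480-135790398, plus strand) encodes mitochondrial malate dehydrogenase, which restores oxaloacetate and closes the cycle. It read 3978, 3507 and 2657 CPM in sham and 476, 374, 763 and 460.1 CPM in MI hearts. It read 1026, 1381, 867 and 1684 CPM in FAPI and 1743, 1570.4, 1938 and 1463 CPM in FapKO hearts. The third MI heart came close to the lowest FAPI heart without reaching it. The log2 fold change was -2.71 (SE 0.26) in MI against sham, 1.26 (SE 0.23) in FAPI and 1.70 (SE 0.24) in FapKO against MI.

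**Figure D2:**
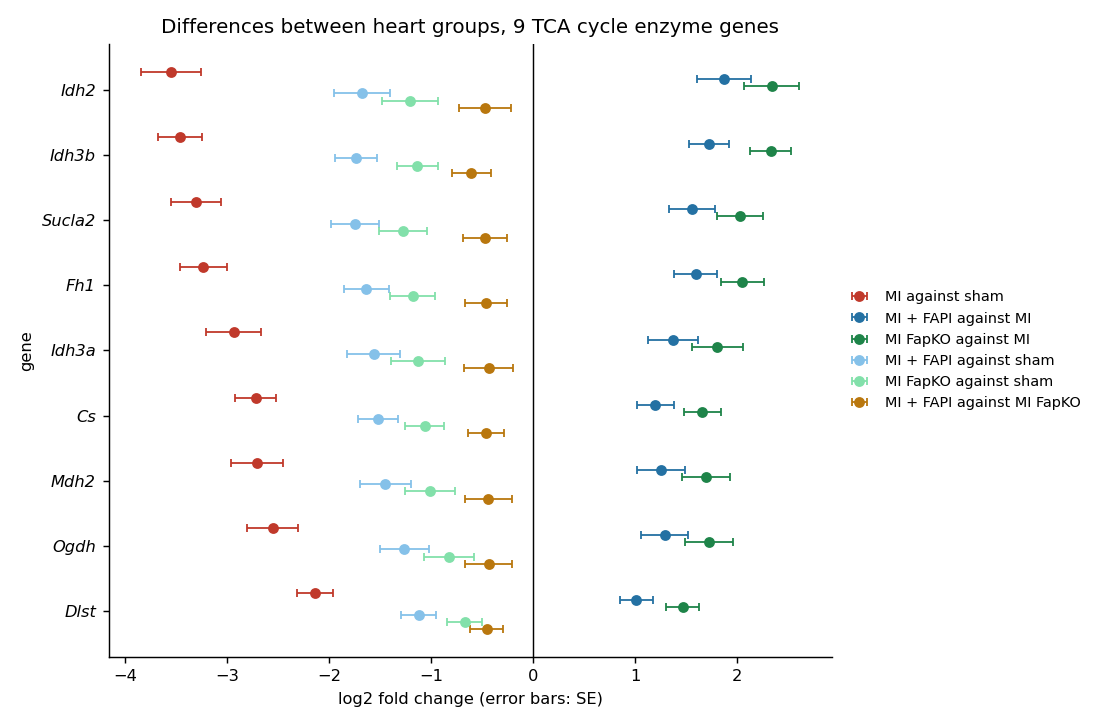
Log2 fold change of each gene in the 6 comparisons between heart groups, with bars of 1 SE, genes ordered by their difference between MI and sham hearts. MI against sham runs from -3.55 (Idh2) to -2.13 (Dlst), and both comparisons with MI hearts lie to the right of 0 for every gene.

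Per kilobase of the longest coding transcript, which assumes reads along the whole transcript, Mdh2 stood highest in every heart group and Dlst lowest. In sham hearts the order was Mdh2 (2322 CPM per kb), Idh2 (1054), Idh3b (745), Sucla2 (523), Idh3a (334), Fh1 (278), Cs (157), Ogdh (140.3) and Dlst (45.8). Of the neighbours in that order, only Cs and Ogdh overlapped between libraries. In MI hearts the order ran from Mdh2 (356 CPM per kb) and Idh2 (90.2) over Idh3b (67.7), Sucla2 (53.1), Idh3a (43.7), Fh1 (29.6), Ogdh (23.9) and Cs (23.8) to Dlst (10.4), and all neighbours between Idh2 and Cs overlapped. The 4 MI libraries spread more than the sham libraries, with a coefficient of variation of 25.4% to 41.3% over the 9 genes against 5.7% to 19.8% in sham, 21.0% to 35.5% in FAPI and 5.3% to 17.0% in FapKO hearts.

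Subunits of 1 enzyme, and the alternative beta subunits of succinyl-CoA ligase, did not move by the same factor. Per kilobase, the ratio of Idh3b to Idh3a was 2.23 ± 0.13 in sham (SD, n = 3), 1.61 ± 0.29 in MI (n = 4), 2.04 ± 0.40 in FAPI (n = 4) and 2.24 ± 0.22 in FapKO hearts (n = 4). All 4 MI hearts (1.32 to 1.99) lay below all sham hearts (2.10 to 2.36), and the FAPI hearts (1.64 to 2.46) overlapped both. The third subunit kept another pattern, with Idh3g to Idh3a at 2.00 ± 0.11 in sham and 2.70 ± 0.18 in MI hearts. Ogdh to Dlst was 3.06 ± 0.16 in sham, 2.26 ± 0.30 in MI, 2.75 ± 0.33 in FAPI and 2.75 ± 0.30 in FapKO hearts, again with MI (1.87 to 2.57) below sham (2.93 to 3.23). Sucla2 to Suclg2, the GDP-specific beta subunit, was 17.4 ± 1.7 in sham, 10.6 ± 1.6 in MI, 15.01 ± 3.41 in FAPI and 14.8 ± 1.4 in FapKO hearts. These ratios were chosen after values were seen and were not tested.

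Set against its cytosolic form, Idh2 changed between heart groups by far more than Mdh2 did. Per kilobase Idh2 exceeded Idh1, the cytosolic isocitrate dehydrogenase, 47.3-fold in sham (40.8 to 52.5), 5.49-fold in MI (3.80 to 9.70), 23.1-fold in FAPI (12.7 to 35.5) and 26.6-fold in FapKO hearts (19.5 to 30.2). The ratio of Mdh2 to Mdh1 moved less: 1.00 ± 0.09 in sham, 1.28 ± 0.19 in MI, 0.945 ± 0.113 in FAPI and 0.996 ± 0.071 in FapKO hearts. All MI hearts (1.08 to 1.47) lay above all FAPI hearts (0.80 to 1.06) and overlapped the sham and FapKO hearts. Mdh1 serves the malate-aspartate shuttle, which carries electrons of cytosolic NADH into mitochondria. The cytosolic forms enter these ratios too: in MI against sham Mdh1 fell by far more than Idh1. Idh2 and Mdh2 themselves stood at -3.55 and -2.71 on the log2 scale there. Neither ratio was tested.

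Between the FAPI and FapKO hearts, all 9 genes had lower estimates in FAPI hearts, by 0.44 to 0.60 on the log2 scale, and 1 passed the test. By edgeR's quasi-likelihood test Idh3b was 1.52-fold lower in FAPI than in FapKO hearts (Benjamini-Hochberg adjusted p 0.0441), where 6.12% of all genes were called lower. The adjusted p of the other 8 ran from 0.0735 (Dlst) to 0.245 (Idh3a). Groups did not overlap for 2 of 9, Idh3b and Fh1, with FAPI below FapKO, as for 8.88% of all genes. The Idh3b call was lost without FAPI replicate 1 (adjusted p 0.126) or 3 (0.146) and without FapKO replicate 1 (0.0991), 2 (0.0509), 3 (0.122) or 4 (0.063), and it was lost with the replicate number as a block (0.074). Without FAPI replicate 4, Cs (0.022), Dlst (0.0233) and Sucla2 (0.0414) joined it as lower in FAPI hearts. Total-count scaling moved the all-gene median of this comparison by 0.13 and the share called lower from 46.5% to 32.1%, and Idh3b kept its call.

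Against sham, the genes that stayed lowest in FAPI hearts were Sucla2 (log2 -1.74, SE 0.23), Idh3b (-1.74, SE 0.20) and Idh2 (-1.68, SE 0.27). In FapKO hearts they were Sucla2 (-1.27, SE 0.23), Idh2 (-1.21, SE 0.27) and Fh1 (-1.18, SE 0.22). The genes nearest to sham were Dlst (-1.12 in FAPI and -0.67 in FapKO hearts) and Ogdh (-1.26 and -0.82). By edgeR's quasi-likelihood test the Benjamini-Hochberg adjusted p ran from 3.72e-06 to 0.000373 in FAPI and from 0.00052 to 0.0134 in FapKO hearts. Without sham replicate 1, Ogdh in FapKO against sham no longer passed (adjusted p 0.056).

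Cardiomyocyte markers moved with these genes. All 14 markers, sarcomere and calcium-handling genes, fell in MI against sham (median log2 fold change -3.03), and 14 of 14 rose in FAPI (1.60) and in FapKO against MI hearts (2.22). Macrophage and fibroblast markers moved the opposite way: 9 of 9 and 9 of 9 rose in MI against sham, and 6 of 9 and 4 of 9 fell in FAPI, and 9 of 9 and 7 of 9 fell in FapKO against MI. The fibroblast list includes Fap, the gene knocked out in FapKO hearts (9.40 to 13.2 CPM in MI, 1.79 to 2.36 CPM in FapKO hearts). Its fall in FapKO hearts is therefore no measure of fibroblast content, with either scaling. The macrophage markers summed to 2194 to 2417 CPM in sham, 7784 to 10904 in MI, 5105 to 8987 in FAPI and 3102 to 5865 in FapKO hearts. Endothelial markers did not move as one: 3 of 8 fell and 1 rose in MI against sham, 1 of 8 fell in FAPI against MI, and 3 of 8 rose in FapKO against MI. With total-count scaling 11 of 14 cardiomyocyte markers fell in MI against sham, and 12 and 13 of 14 rose in FAPI and FapKO against MI. With that scaling 9 of 9 macrophage markers fell in both comparisons with MI hearts, as did 7 of 9 fibroblast markers in FAPI and 9 of 9 in FapKO hearts. The part of these other cell types in the differences of the 9 genes was not tested. Neutrophil and adipocyte markers summed to 112 to 855 and 135 to 271 CPM in MI hearts, against 40.5 to 52.1 and 12.9 to 31.5 CPM in sham. They summed to 43.1 to 69.6 and 6.94 to 43.5 CPM in FAPI hearts, and to 53.2 to 65.6 and 18.5 to 164 CPM in FapKO hearts. Against MI, 7 of 7 neutrophil and 5 of 5 tested adipocyte markers fell in FAPI, and 7 of 7 and 4 of 5 in FapKO hearts.

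Levels were therefore also set against the mean log2 CPM of the 14 markers in the same heart, in 2 ways. With the marker level as a covariate in the edgeR fit, 4 of 9 genes stayed lower in MI than in sham hearts, where 3.08% of all genes were called lower. They were Idh3b (log2 -1.69, SE 0.27, adjusted p 0.00176), Fh1 (-1.19, SE 0.24, adjusted p 0.00648), Sucla2 (-1.22, SE 0.31, adjusted p 0.0241) and Cs (-0.96, SE 0.23, adjusted p 0.0201). The other 5 kept negative estimates from -1.20 (Idh2, adjusted p 0.0669) to -0.31 (Ogdh, adjusted p 0.565). In this edgeR quasi-likelihood fit 0 of 9 genes passed between FAPI and MI hearts, 2 of 9 were higher at an unadjusted p under 0.05, and estimates ran from -0.069 (Ogdh) to 0.65 (Idh3b, adjusted p 0.251), where 0.00586% of all genes were called higher. Between FapKO and MI hearts 1 of 9 was called, Idh3b (log2 1.00, SE 0.21, adjusted p 0.0278), beside 0.199% of all genes. The marker level ran from 8.49 to 9.93 in MI, 10.29 to 11.12 in FAPI, 10.98 to 11.29 in FapKO and 11.7 to 11.8 in sham hearts. Since MI hearts share no level with any other group, the marker level and the group can hardly be told apart in the comparisons with MI hearts, and the few calls there do not show that the genes did not differ.

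Against sham the covariate left more calls. Sham hearts, too, share no marker level with FAPI or FapKO hearts. The marker level and the group can hardly be told apart there either, so these calls do not show a difference beyond the marker level. Lower were 8 of 9 genes in FAPI hearts (14.6% of all genes) and 8 of 9 in FapKO hearts (13.4%), in both cases all but Ogdh (adjusted p 0.0555 and 0.105). In this fit Idh3b had the lowest estimate in FAPI hearts (log2 -1.04, SE 0.14) and Sucla2 in FapKO hearts (-0.75, SE 0.12). Between FAPI and FapKO hearts Idh3b was again the 1 gene called (log2 -0.34, SE 0.09, adjusted p 0.0268; 4.12% of all genes called lower).

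Subtracting the marker level from each gene's log2 CPM gave a difference per heart. For Idh3b this difference was -1.55 ± 0.13 in sham, -2.25 ± 0.29 in MI, -2.19 ± 0.11 in FAPI and -1.997 ± 0.051 in FapKO hearts (SD), and for Sucla2 -1.60 ± 0.17, -2.15 ± 0.24, -2.25 ± 0.12 and -2.19 ± 0.05. In both, every infarcted heart of the 3 groups lay below every sham heart. Idh2 (-0.94 ± 0.09 in sham and -1.76 ± 0.15 in MI) and Fh1 (-2.27 ± 0.12 and -2.76 ± 0.19) did the same. In MI against sham these were the 4 of 9 genes below without overlap, beside 1.28% of all genes, and Dlst was above without overlap, beside 92.2% of all genes. Mdh2 overlapped between sham (-0.33 to 0.15) and MI (-0.36 to 0.32), as did Cs, Idh3a and Ogdh. The 2 ways differ in sign for 4 genes in MI against sham: Cs, Dlst, Ogdh and Mdh2 had negative estimates with the covariate, while their mean difference from the markers was higher in MI than in sham hearts for Cs (-2.90 against -2.94), Dlst (-4.16 against -4.79), Ogdh (-2.42 against -2.60) and Mdh2 (-0.017 against -0.075).

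**Figure D3:**
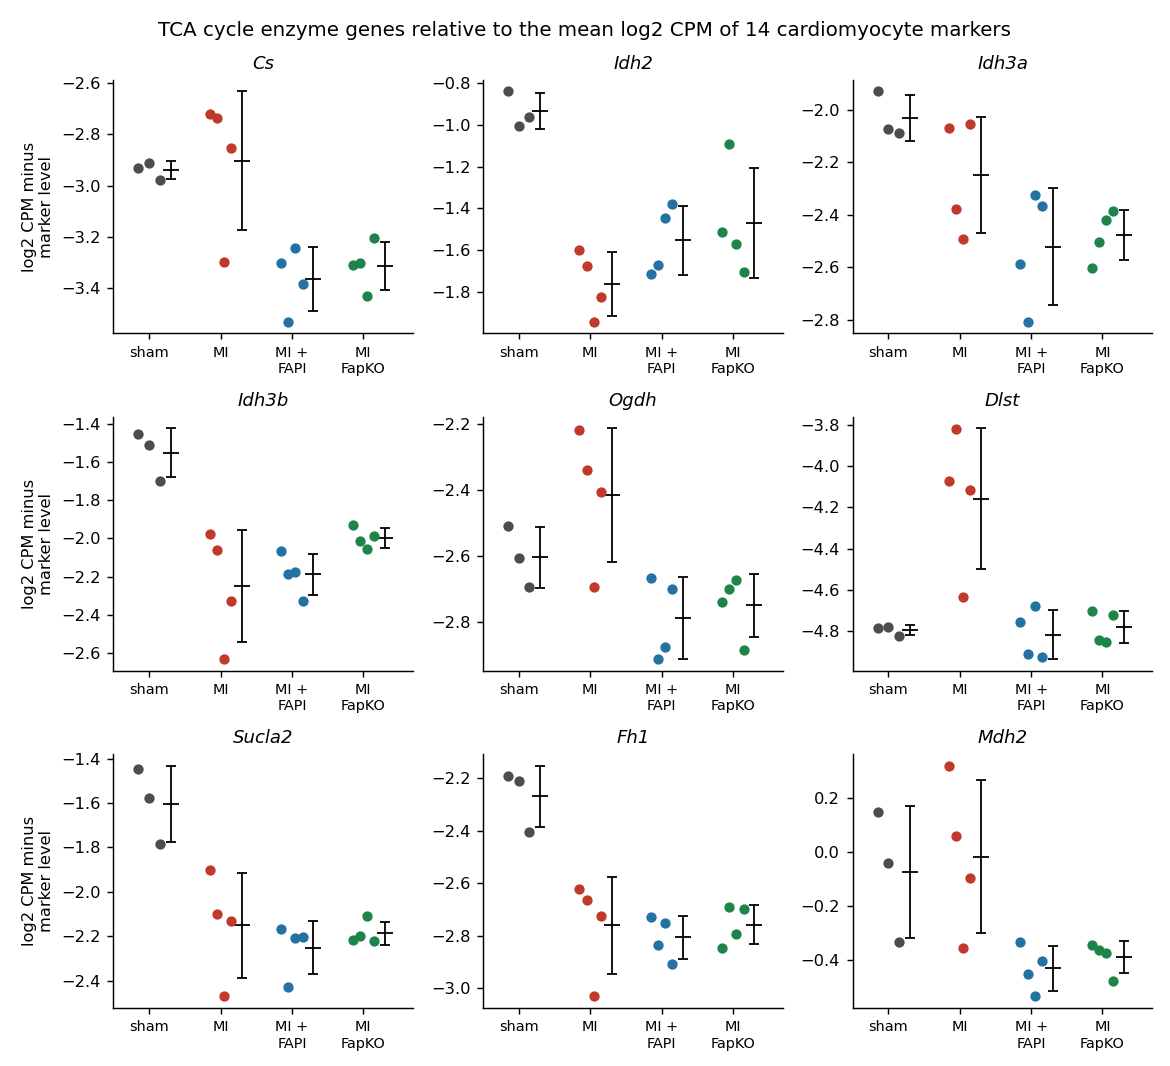
Log2 CPM of each gene minus the mean log2 CPM of 14 cardiomyocyte markers in the same heart, with bars giving the mean and SD. For Idh2, Idh3b, Sucla2 and Fh1 all 12 infarcted hearts lie below the 3 sham hearts, while for Dlst the 4 MI hearts lie above them.

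On the same difference, 6 of 9 genes were below sham without overlap in FAPI hearts (3.94% of all genes) and 7 of 9 in FapKO hearts (3.73%). These were Cs, Idh2, Idh3a, Idh3b, Sucla2 and Fh1 in both, and Mdh2 in FapKO hearts. Against MI hearts, none of the 9 lay above without overlap in FAPI or FapKO hearts, as for 0.275% and 0.551% of all genes, and Dlst lay below in both, as for 77% and 89.7%. Idh3b was the 1 gene with FAPI below FapKO hearts, as for 1.66% of all genes.

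Single hearts stood apart together with the markers. MI replicate 3 was the highest MI heart for 9 of 9 genes, and it had the highest cardiomyocyte marker level of its group (9.93 against 8.49 to 8.94) and the most mitochondrially encoded counts (8.03%). FAPI replicate 4 was the highest FAPI heart for 9 of 9, with a marker level of 11.1 against 10.3 to 10.9. FapKO replicate 3 was highest for 8 of 9 and had the highest marker level of its group (11.3). MI replicate 2 was lowest for 8 of 9 and had the lowest marker level (8.49). In sham, replicate 3 was lowest for 9 of 9, with the lowest marker level of the 3 (11.71 against 11.81 and 11.82) and the most mitochondrially encoded counts (19.6% against 15.2% and 16.3%). Without MI replicate 3 all 9 genes kept their calls in MI against sham and in both comparisons with MI hearts.

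The genes closest to the 9 across hearts were other mitochondrial genes. Over all 15 hearts the highest Pearson correlations with the mean log2 CPM of the 9, among 17037 other genes, were those of Atp5a1 and Atp5c1 (subunits of ATP synthase), Cox5b (cytochrome c oxidase), Cyc1 (cytochrome c1) and Slc25a11 (the 2-oxoglutarate carrier), with r from 0.998 to 0.999. Over the 12 infarcted hearts they were Cyc1, Uqcrfs1 (the Rieske protein of complex III), Atp5a1, Atp5c1 and Apoo (a protein of the cristae junctions), with r of 0.999. Over all 15 hearts each of the 9 followed the mean of the other 8 with r from 0.992 (Idh3a) to 0.998 (Sucla2), and the cardiomyocyte marker level with r from 0.974 (Cs) to 0.988 (Ogdh). Over the 12 infarcted hearts these ran from 0.985 (Idh3a) to 0.998 (Sucla2) and from 0.983 (Idh3b) to 0.994 (Fh1). These coefficients describe hearts that fall into separate groups and share their libraries.

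Other genes of the mitochondrial cycle moved with the 9. All 8 on this list (Idh3g, Dld, Suclg1, Suclg2 and the 4 subunits of succinate dehydrogenase) fell in MI against sham, with a median log2 fold change of -2.75. Leading by p were Suclg2 (-2.60) and Suclg1 (-3.15), which encode subunits of succinyl-CoA ligase. All 8 rose in FAPI against MI (median 1.24; Suclg2 1.08 and Suclg1 1.37) and in FapKO against MI (median 1.64; Suclg2 1.57 and Suclg1 2.03). Against sham 8 of 8 were lower in FAPI (median -1.52; Suclg2 -1.52 and Sdha -1.76) and in FapKO hearts (median -1.07; Suclg2 -1.03 and Sdha -1.27). Between FAPI and FapKO hearts 2 of 8 were lower, Suclg2 (-0.49) and Suclg1 (-0.65). With total-count scaling the 8 kept their direction and calls in MI against sham (median -1.69), in FAPI (0.83) and FapKO against MI (1.12), and in FAPI (-0.86) and FapKO hearts against sham (-0.53).

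The cytosolic genes listed beside the cycle did not move as a group. They are enzymes that share its substrates and Ireb2, an RNA-binding relative of Aco1 that is not such an enzyme. In MI against sham 4 of 6 fell and 2 of 6 rose (median -0.34), led by Mdh1 (-2.99) and Me1, cytosolic malic enzyme (-0.97). Named after their values were seen, Acly, which splits citrate in the cytosol, and Ireb2 rose by 0.56 and 0.58, and Idh1 and Aco1 fell by 0.41 and 0.28 on the log2 scale. In FAPI against MI 2 rose and 1 fell (Mdh1 1.64, Me1 0.38, Acly -0.32), and in FapKO against MI 2 rose and 1 fell (Mdh1 2.00, Me1 0.54, Acly -0.45). Between FAPI and FapKO hearts 0 of 6 passed edgeR's quasi-likelihood test, DESeq2 or limma-voom, and 0 of 6 had an unadjusted p under 0.05 in any of them, with the smallest edgeR p for Idh1 (-0.21) and Mdh1 (-0.36). Against sham 4 of 6 were lower and 1 higher in both FAPI (Mdh1 -1.34, Idh1 -0.59) and FapKO hearts (Aco1 -0.41, Mdh1 -0.98). Directions in this list turned with the scaling: with total counts 4 of 6 rose and 1 fell in MI against sham (median 0.75), 1 rose and 4 fell in FAPI and in FapKO against MI, and 3 and 2 rose in FAPI and FapKO hearts against sham, where 1 was lower in FAPI hearts.

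**Figure D4:**
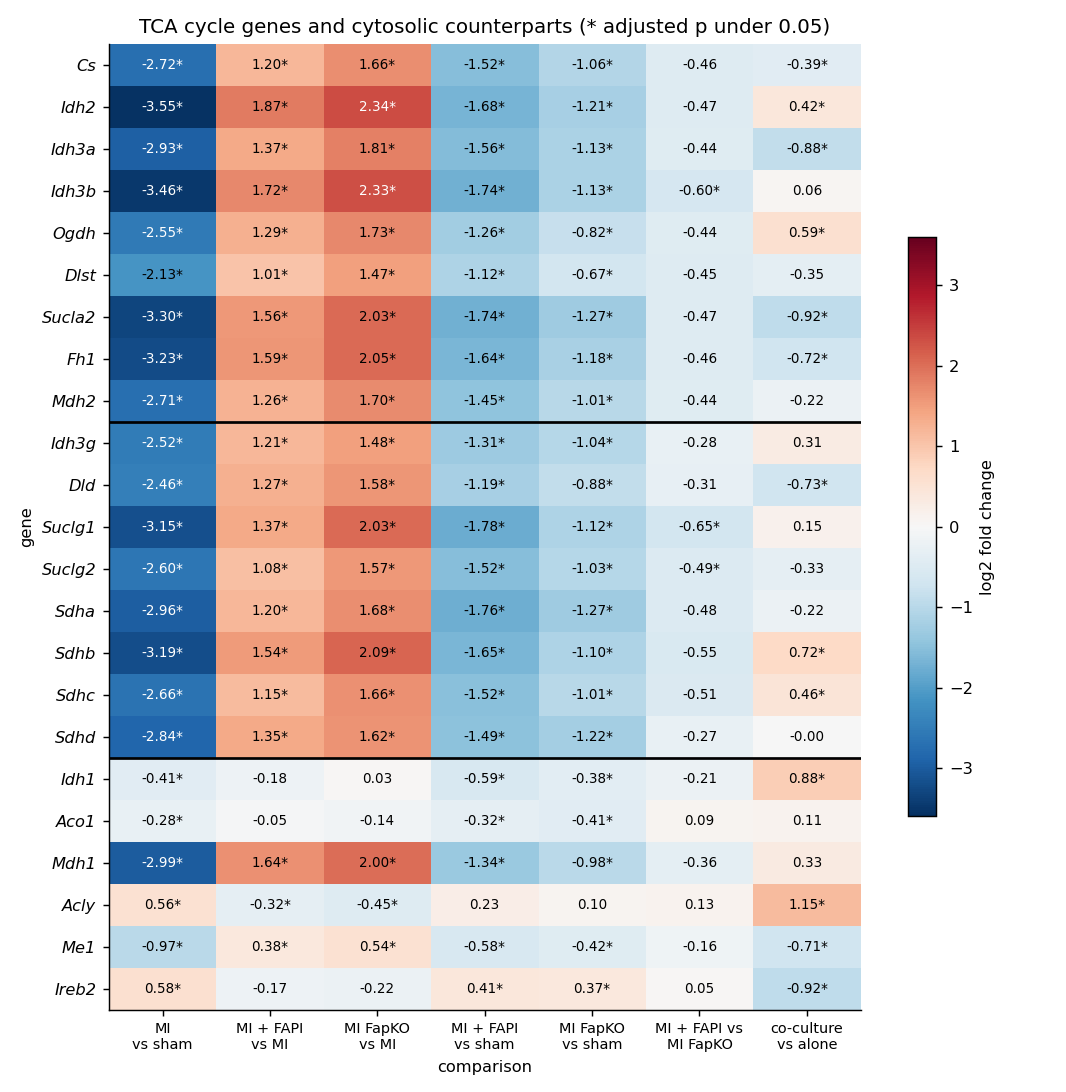
Log2 fold change of the 9 genes (top block), 8 other mitochondrial TCA cycle genes (middle) and 6 cytosolic counterparts (bottom) in the 7 comparisons, with a star where the adjusted p passed 0.05. The upper 17 genes share 1 direction in each of the 5 comparisons with sham or MI hearts, while the cytosolic genes do not, and signs are mixed in all 3 blocks in the culture comparison.

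Of 12 genes through which carbon enters or leaves the cycle, 9 fell and 3 rose in MI against sham (median -2.62). Got2, mitochondrial aspartate aminotransferase, and Mpc2, of the mitochondrial pyruvate carrier, led at -3.13 each. In FAPI against MI 8 rose and 2 fell, led by Got2 (1.71) and Pdhx, the binding protein of pyruvate dehydrogenase (1.56), and in FapKO against MI 8 rose and 1 fell, led by Mpc2 (2.21) and Pdhx (1.94). Against sham 9 were lower and 2 higher in FAPI (Mpc2 -1.71, Pdha1 -1.13) and in FapKO hearts (Got2 -1.20, Pdha1 -0.82). Between FAPI and FapKO hearts 2 were lower, Mpc2 (-0.79) and Pcx, pyruvate carboxylase (-0.47). The 3 that rose in MI against sham were Pck2 (1.57), Me2 (0.55) and Pcx (0.39), which are named after their values were seen. With total-count scaling the counts were 4 higher and 8 lower in MI against sham, 8 higher and 4 lower in FAPI and in FapKO against MI, and 4 higher and 6 lower in FAPI and 3 higher and 4 lower in FapKO hearts against sham.

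Of 11 genes for lipoate attachment, assembly of the complexes and deacylation, 11 fell in MI against sham (median -1.62). Mrps36, an adaptor of the 2-oxoglutarate dehydrogenase complex, fell by 3.09 and Lias, lipoic acid synthase, by 1.35 on the log2 scale. In FAPI against MI 9 of 11 rose (Mrps36 1.32; Sirt5, a mitochondrial desuccinylase, 1.13), and in FapKO against MI 11 of 11 rose (Mrps36 1.96; Sdhaf3, an assembly factor of succinate dehydrogenase, 1.33). Against sham 11 of 11 were lower in FAPI (Mrps36 -1.76; Sirt3, a mitochondrial deacetylase, -1.15) and 8 of 11 in FapKO hearts (Mrps36 -1.13, Lias -0.57). Between FAPI and FapKO hearts 5 of 11 were lower, led by Nnt (-0.81) and Sdhaf1 (-0.60), and Nnt has overlapping gene models, so its counts are uncertain. Total-count scaling left 9 lower in MI against sham, 4 higher in FAPI and 9 higher in FapKO against MI, and 4 and 1 lower in FAPI and FapKO hearts against sham.

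In the cultured fibroblasts the 9 genes did not move as a group. In co-culture against fibroblasts alone, Idh2 and Ogdh rose, Cs, Idh3a, Sucla2 and Fh1 fell, and Idh3b, Dlst and Mdh2 did not pass the test. By the quasi-likelihood test of edgeR, adjusted over 12293 genes by the Benjamini-Hochberg method, 2 of 9 were higher, where 30.3% of all genes were called higher, and 4 of 9 lower, where 29.5% were. Groups did not overlap for Idh2 and Ogdh (above, as for 33.3% of all genes) and for Idh3a, Sucla2, Fh1 and Mdh2 (below, as for 33.7%). The median log2 fold change was -0.35, beside -0.06 over all genes tested.

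Idh3a read 113, 101 and 106 CPM alone and 60.8, 59.5 and 53.3 CPM in co-culture. Every co-cultured sample lay well below every sample grown alone, at -0.88 on the log2 scale (SE 0.11, edgeR adjusted p 0.000172). Sucla2 read 131, 159 and 114 CPM alone and 77.1, 70.4 and 65.5 CPM in co-culture, without overlap (-0.92, SE 0.15, edgeR adjusted p 0.000627). Fh1 read 72.8, 40.8 and 74.2 CPM alone and 37.6, 38.7 and 37.5 CPM in co-culture (-0.72, SE 0.22, edgeR adjusted p 0.0174). For Fh1 the second sample alone came close to the co-cultured ones. Cs read 119, 87.7 and 120.0 CPM alone and 79.5, 76.2 and 92.9 CPM in co-culture (-0.39, SE 0.15, edgeR adjusted p 0.0476), and there the same sample lay among them.

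Ogdh read 45.3, 54.1 and 41.2 CPM alone and 68.6, 65.5 and 77.4 CPM in co-culture, with every co-cultured sample above every other (0.59, SE 0.14, edgeR adjusted p 0.00518). Idh2 read 66.4, 48.5 and 73.2 CPM alone and 82.4, 84.3 and 85.2 CPM in co-culture, again without overlap (0.42, SE 0.16, edgeR adjusted p 0.0418). The co-cultured samples agreed closely, and the spread of Idh2 lay in the samples grown alone. Mdh2 read 1022, 1006 and 927 CPM alone and 898, 832 and 809.7 CPM in co-culture (-0.22, SE 0.10, edgeR adjusted p 0.0961). Dlst read 24.2, 15.8 and 24.6 CPM alone and 12.8, 18.3 and 19.4 CPM in co-culture (-0.35, edgeR adjusted p 0.197) and Idh3b 70.6, 52.9 and 72.8 CPM alone and 67.1, 72.9 and 64.3 CPM in co-culture (0.06, edgeR adjusted p 0.751). Both overlapped, and Dlst rested on 53 to 111 counts per co-cultured sample.

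**Figure D5:**
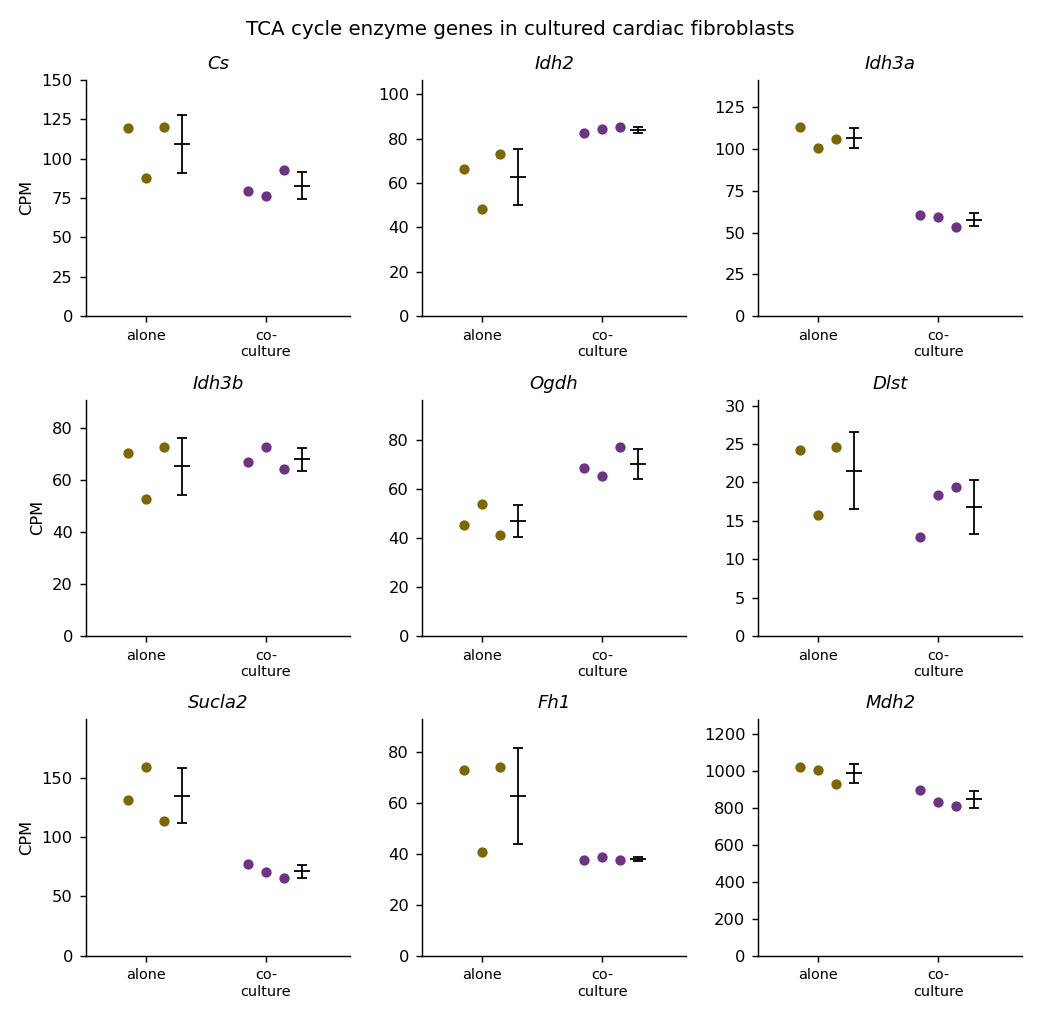
CPM of the 9 genes in each culture library (linear axis from 0), with points in replicate order and bars giving the mean and SD (n = 3 per group). Idh3a and Sucla2 are lower and Idh2 and Ogdh higher in all 3 co-cultured samples than in the 3 grown alone, and the second sample alone is the lowest of its group for 6 of 9 genes.

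Alone replicate 2 differed from the other cultures in that Actb took 18.5% of its counts, against 3.13% to 5.81% in the other 5. Without it 7 of 9 genes were called: Dlst (edgeR adjusted p 0.0107) and Mdh2 (0.0315) joined the lower genes, and Idh2 (0.0514) no longer passed. The share of all genes called without this sample is not given here. With all 6 samples 30.3% of all genes were called higher and 29.5% lower. Idh3a, Sucla2 and Ogdh kept their calls without any 1 of the 6 samples. Fh1 lost its call without co-culture replicate 1 (0.0573), 2 (0.0517) or 3 (0.0616) or alone replicate 3 (0.0522). Idh2 lost its call also without co-culture replicate 1 (0.0871), 2 (0.105) or 3 (0.114) or alone replicate 1 (0.0674), and Cs lost its call without each sample but alone replicate 2 (adjusted p 0.0529 to 0.159). With total-count scaling, which moved the all-gene median by -0.35, 6 of 9 genes were lower and 0 higher by edgeR's test (0 also at an unadjusted p under 0.05): Idh2 (log2 0.05, adjusted p 0.839) and Ogdh (0.26, adjusted p 0.178) kept their sign without passing, and Dlst and Mdh2 passed as lower. The share of all called genes that were lower moved from 49.3% to 67.3% with it. The share of all genes tested that were called with this scaling is not given here. The 6 of 9 can therefore not be set beside it and is not read as particular to these genes.

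Markers of other cells moved between these groups too. All 9 macrophage markers fell in co-culture (median log2 fold change -2.06, summed 388 to 509 CPM against 895 to 1438 CPM alone), as did Ptprc, the gene of CD45 (-2.28). Of 7 smooth muscle and pericyte markers 5 were tested, of which 4 fell and 1 rose, with sums of 562 to 665 CPM against 1510 to 2565 CPM alone. Endothelial markers summed to 20.1 to 23.6 CPM in co-culture and 16.6 to 18.2 CPM alone. Of these 8 markers 4 were tested, of which 1 rose and 0 fell (median log2 fold change -0.15). The mean log2 CPM of the tested ones was 1.44 to 1.93 in co-culture and 1.80 to 1.88 alone. In every library 5 of the 8 stayed under 10 counts in co-culture and 4 alone. Of the 9 fibroblast markers 5 rose and 1 fell in co-culture (median log2 fold change 1.00), and their mean log2 CPM was 8.15 to 8.17 in co-culture and 7.31 to 7.46 alone. Their sums overlapped (7510 to 7884 and 4695 to 10721 CPM), with the highest in alone replicate 2. Pdgfra in the fibroblast list, Pecam1 (the gene of CD31) in the endothelial list and Ptprc are genes of the sort. Only the co-cultured cells were sorted, so the values of these genes are no check of cell content apart from the sort. No endothelial or macrophage marker was at 0 in every library of either group. The part of these cells, and of the sort, in the differences of the 9 genes was not tested.

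Per kilobase, Mdh2 stood 11.2-fold above the next of the 9 genes (Sucla2) in fibroblasts alone and 12.1-fold above the next (Idh2) in co-culture. In sham hearts it stood 2.202-fold above the next (Idh2). Alone the order was Mdh2 (676 CPM per kb), Sucla2 (60.4), Idh3a (41.4), Idh3b (40.5), Cs (37.2), Idh2 (35.9), Fh1 (23.7), Ogdh (11.4) and Dlst (7.79), with overlap between all neighbours from Idh3a to Fh1. In co-culture it was Mdh2 (581 CPM per kb), Idh2 (48.1), Idh3b (42.1), Sucla2 (31.9), Cs (28.3), Idh3a (22.4), Ogdh (17.1), Fh1 (14.4) and Dlst (6.10), and only Sucla2 and Cs overlapped. The ratio of Idh3b to Idh3a was 0.976 ± 0.131 alone and 1.88 ± 0.10 in co-culture (SD, n = 3). The heart and culture libraries were made from different RNA and deduplicated differently by their file marks, so values of the 2 experiments were not tested against each other.

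Other cycle genes were mixed in co-culture as well. Of the 8 other mitochondrial genes 2 rose and 1 fell (median 0.075), led by Sdhb, the iron-sulfur subunit of succinate dehydrogenase (0.72), and Dld, the E3 subunit of the dehydrogenase complexes (-0.73). Of the 6 cytosolic counterparts 2 rose and 2 fell, led by Idh1 (0.88) and Acly (1.15). Of the 12 carbon entry and exit genes 4 rose and 3 fell, led by Pcx (1.63) and Mpc1, of the pyruvate carrier (2.39). Of the 11 cofactor and assembly genes 3 rose and 2 fell, led by Mrps36 (0.69) and Sirt3 (1.51). With total-count scaling 3 of the 8 other mitochondrial genes fell (median -0.29), and 2 rose and 2 fell of the cytosolic counterparts. With it 3 rose and 3 fell of the carbon entry and exit genes, and 1 rose and 4 fell of the cofactor and assembly genes.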

How the data were processed

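RNA was measured in 15 mouse hearts and 6 fibroblast cultures with a modified Smart-seq2 protocol with UMI barcodes, per the labels' protocols. The authors deposited 1 table of raw read counts per gene for each sample; STAR, HTSeq and the build mm10 are named in the submitters' processing notes, with no version, annotation or setting. The culture files are marked as duplicate-removed and the heart files are not, and the step is not described, so the 2 experiments were never compared by a test. Of 53801 identifiers, 53620 matched a symbol and 0 entries named no gene; 6 columns of a series-wide table matched no sample label and were not used.

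Counts were fitted with edgeR 4.0.16 (R 4.3.3; quasi-likelihood test, TMM scaling, filterByExpr, Benjamini-Hochberg adjustment over all genes tested, threshold 0.05), the 15 hearts in 1 fit and the 6 cultures in another, without covariates. CPM values use TMM-scaled library sizes, and log2 CPM carries a prior count of 2; standard errors were derived from the fold change and its F statistic. Levels are compared between genes only per kilobase of the longest coding transcript of GENCODE M21 (GRCm38). Members, lists and markers were chosen with earlier results of these data known. A gene in each of 2 pathway lists is not reported here and was left out of their counts. Named genes outside the 9 are the 2 with the smallest p in each list and comparison, and the 5 most alike by Pearson correlation. The other settings tried were DESeq2 1.42.0, limma-voom 3.58.1, RLE and total-count scaling, other filters, a replicate block, removal of mitochondrially encoded and the 50 most abundant genes, a fit of only the groups compared, a log2 fold change of at least 1, the cardiomyocyte marker level as a covariate, and leaving out each library. Counts of replicate pairs differed by more than sampling noise (chi-square per degree of freedom 3.35 to 198 over 27 pairs), so no library was counted as a copy. The model script was tested on simulated data. Promoter windows came from RefSeq (GRCm38.p6). Figures were drawn with matplotlib 3.10.9.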

Additional observations from a re-analysis of the deposited data

Results flagged for a closer look

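Within heart groups of 4, a single library stood far from the other 3 for 2 of the 27 gene and group combinations examined, where chance alone gives about 1 in 20. Idh3b read 157.3 CPM in MI replicate 3, against 85.7 to 97.9 CPM in the other MI hearts, and the gap made up 0.83 of the whole range of the group. The same heart had the highest cardiomyocyte marker level of the MI hearts (9.93 against 8.49 to 8.94), whose part in the value was not tested. Fh1 read 361.9 CPM in FapKO replicate 3, against 307 to 313 CPM in the other FapKO hearts (0.886 of the range), and that heart too had the highest marker level of its group (11.29 against 10.98 to 11.11).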

How the results depend on the processing

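Over the alternatives, the counts of the 9 genes called in the hearts stayed within 1.5 times the reported count in 97 of 111 cases, and single genes kept direction and call in 957 of 999 cases. In FAPI against FapKO hearts the count of 1 became 2 with no filter on low counts and 2 with DESeq2 (Dlst, adjusted p 0.0408 and 0.0453, joined Idh3b), and 0 with a log2 fold change of at least 1. It ranged from 0 to 4 when 1 library was left out. The correlation of deviations between same-numbered replicates was over 0.1 in 7 of 21 pairs in hearts (-0.29 to 0.32) and in 0 of 3 pairs in cultures (-0.18 to 0.06), which falls short of every pair, and no label ties the numbers to an animal or day, so they were not taken to pair the samples. With the replicate number as a block, the count in FAPI against FapKO hearts was 0 of 9 (4 of 9 at an unadjusted p under 0.05 by edgeR), and in the cultures it stayed at 6. With a covariate for the cardiomyocyte marker level the count was 4 in MI against sham, 0 in FAPI against MI and 1 in FapKO against MI, and in FAPI against MI the estimates of Idh3a (-0.020), Ogdh (-0.069) and Mdh2 (-0.014) changed sign. In the cultures the count of 6 became 0 with a log2 fold change of at least 1 and ranged from 3 to 7 when 1 library was left out. Over the alternatives it stayed within 1.5 times of 6 in 11 cases and fell further in 4. Single genes kept direction and call in 100 cases, lost the call in 27, gained it in 5 and changed sign in 3. Cs lost its call with DESeq2 (adjusted p 0.0642), limma-voom (0.0599) and edgeR with RLE scaling (0.0541). It also did so in edgeR without mitochondrially encoded and the 50 most abundant genes (0.0502). Idh2 lost its call in edgeR with no filter (0.119). Idh3b, which was not called in the cultures, changed sign with total-count scaling (-0.31), with no filter (-0.044) and without alone replicate 2, and it ran from -0.10 to 0.12 when 1 library was left out. The cause of these changes was not tested. Depth was lowest for Dlst, with 53 to 111 counts per co-cultured sample.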
